A study of Mus musculus with 6 samples.

Results

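Guanylate-binding proteins (GBPs) were followed as 8 genes, Gbp2 to Gbp9, chosen by symbol and all present among the 15634 genes listed for each library. All 8 passed the filter on low counts, as did 15547 of the listed genes. The cells were bone marrow-derived mesenchymal stem cells (MSCs, adherent stromal cells of the marrow), taken from C57BL/6J wild-type mice. Unstimulated cells gave the 3 libraries of the Control group. The 3 libraries of the TNF group came from cells given the inflammatory cytokine TNF-α at 10 ng/mL for 24 h. The labelled time was 24 h for Control too, and all cells were kept in medium with 15% fetal bovine serum. No genetic change separated the groups. Whether the 3 libraries of a group stand for different mice or dishes is not stated in the labels. The p-values below therefore describe library-to-library spread, which may be technical.

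GBPs are large GTPases of the dynamin superfamily, related to the atlastins that fuse membranes of the endoplasmic reticulum. They are known as interferon-inducible proteins of cell-autonomous defence: they assemble on vacuoles and on bacteria in the cytosol, disturb the membranes and promote inflammasome activation through caspase-11, the product of Casp4. Several members, among them Gbp2 and Gbp5, carry a C-terminal lipid anchor added by prenylation. In the mouse the genes stand in clusters on chromosomes 3 and 5. In the GRCm38 assembly of RefSeq, Gbp5, Gbp7, Gbp3 and Gbp2 follow each other on chromosome 3, with Gbp2b between the last of them. Gbp8, Gbp9, Gbp4 and Gbp6 lie on chromosome 5, with Gbp10 between Gbp4 and Gbp6 and with Gbp11 after Gbp6.

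Interferons act on such genes through the interferon-stimulated response element (ISRE), bound by IRF and STAT proteins, and the GAS element, while TNF acts through NF-kB, which binds kB sites. RefSeq promoter sequence (build GRCm38.p6, not the GRCm39 build of the counts) was matched by symbol for 4 of the 8 members, Gbp2, Gbp3, Gbp5 and Gbp7. The 180 bases before each start are shown because all 4 hold an ISRE match. They are written 5′ to 3′ on the plus strand, with matches in capitals, from chr3:142620483-142620662 for Gbp2, chr3:142559864-142560043 for Gbp3, chr3:142496754-142496933 for Gbp5 and chr3:142530156-142530335 for Gbp7.
Gbp2: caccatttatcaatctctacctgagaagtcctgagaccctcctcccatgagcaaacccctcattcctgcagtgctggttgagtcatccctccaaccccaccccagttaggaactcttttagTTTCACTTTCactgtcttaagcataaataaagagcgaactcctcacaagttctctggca
Gbp3: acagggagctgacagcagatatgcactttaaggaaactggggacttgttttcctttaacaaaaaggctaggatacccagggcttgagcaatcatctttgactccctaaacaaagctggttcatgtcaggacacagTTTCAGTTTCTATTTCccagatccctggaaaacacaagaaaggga
Gbp5: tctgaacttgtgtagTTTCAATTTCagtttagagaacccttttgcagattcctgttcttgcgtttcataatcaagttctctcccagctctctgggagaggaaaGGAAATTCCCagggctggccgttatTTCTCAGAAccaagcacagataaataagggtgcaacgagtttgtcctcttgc
Gbp7: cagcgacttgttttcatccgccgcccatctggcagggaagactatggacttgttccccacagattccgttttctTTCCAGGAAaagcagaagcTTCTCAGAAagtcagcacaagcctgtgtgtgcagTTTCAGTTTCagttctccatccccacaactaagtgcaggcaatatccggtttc

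The motifs were searched on both strands as TTTC and TTTC with any 2 bases between them (ISRE), TTC and GAA with any 3 between them (GAS), and GGGA and TTCC with any 2 between them (kB), in windows of 250 bases before and 50 after the start. With positions counted from the start, negative before it, the ISRE letters began at -59 in Gbp2, -53 in Gbp7 and -165 in Gbp5. In Gbp3 a pair of overlapping ISRE matches began at -45 and -39, and a second RefSeq start of that gene had no match to any of the 3 motifs. Among all 32851 promoter windows, 3.44% held the ISRE letters. GAS letters, held by 8.30% of windows, were found in Gbp7 at -106 and -87 and in Gbp5 at -245 and -52. The kB letters, held by 1.47% of windows, were found on the minus strand at -77 in Gbp5 and at 8 in Gbp2. A match describes letters and is not evidence of binding in these cells.

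**Figure D1:**
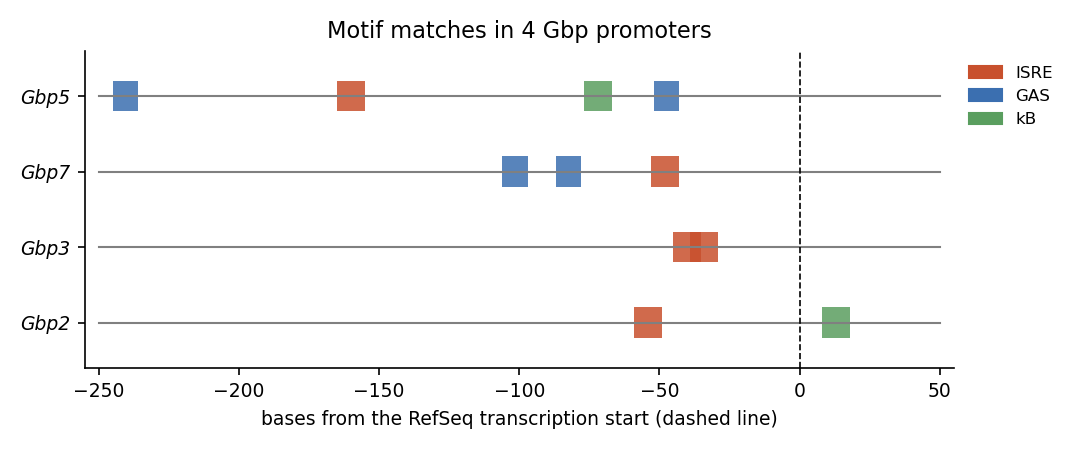
Positions of ISRE, GAS and kB letter matches (boxes) in the RefSeq promoter windows of 4 members, by distance in bases from the transcription start (dashed line). ISRE matches begin between -59 and -39 in Gbp2, Gbp3 and Gbp7 and at -165 in Gbp5.

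All 8 members were called higher in TNF by the quasi-likelihood test of edgeR (adjusted p under 0.05, Benjamini-Hochberg over all genes), against 16.0% of all genes tested called higher and 32.4% called in either direction. The 3 TNF values lay above the 3 Control values in all 8, against 24.0% of all genes. Against a minimum change of 2-fold (edgeR's glmTreat), 7 of the 8 were called higher, against 3.48% of all genes, and Gbp8 was not. The median log2 fold change was 4.21 over the members and -0.0046 over all genes tested. Sizes differed widely, from 1.98-fold for Gbp8 to 161-fold for Gbp5, and 5 members stood among the 100 genes with the largest rises. Values below are CPM (counts scaled to a common library size with TMM factors), with SDs over n = 3 libraries a group.

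**Figure D2:**
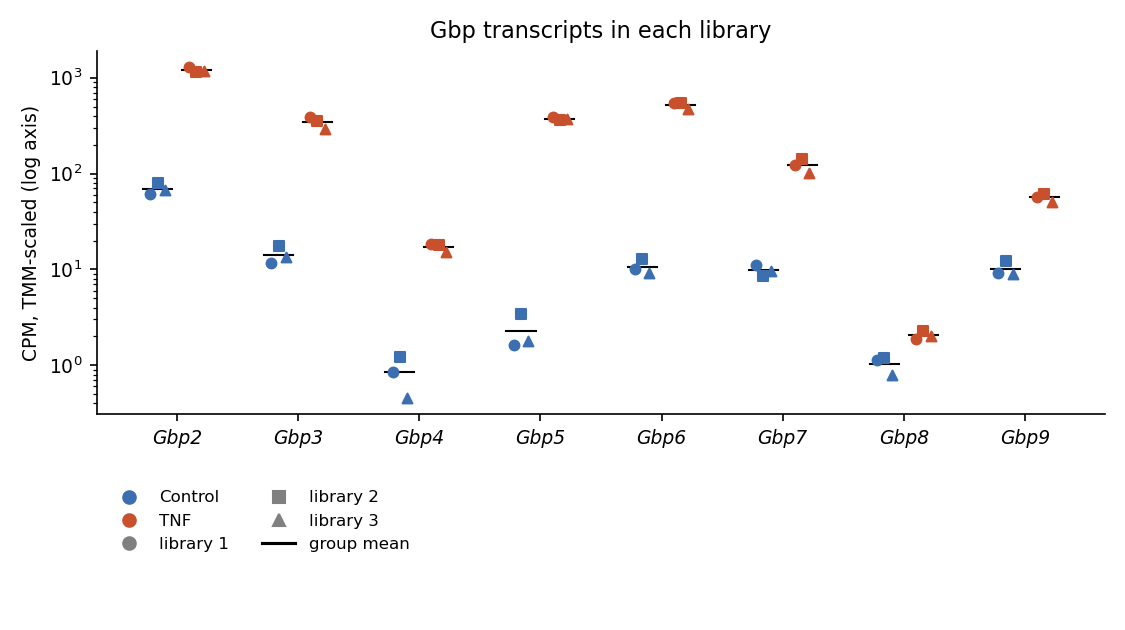
CPM of each member in each library on a log axis, with Control in blue, TNF in red, a symbol for each library number and bars at the group means. In every member the 3 TNF values lie above the 3 Control values, with the narrowest gap for Gbp8.

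Gbp5, which is linked to assembly of the NLRP3 inflammasome, changed most. It had 1.61, 3.43 and 1.81 CPM in Control libraries 1, 2 and 3, and 392, 360 and 368 CPM in TNF libraries 1, 2 and 3. Control library 2 held about as much Gbp5 CPM as the other Control libraries together, while the TNF libraries were close to each other. The rise from 2.28 ± 0.995 to 374 ± 16.8 CPM gave a log2 fold change of 7.33 ± 0.29 (SE; adjusted p = 6.73e-07, edgeR), the 21st largest among the 15547 genes tested. The lowest TNF value was 105 times the highest Control value.

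Gbp2, a prenylated GBP that coats parasite vacuoles, was the most abundant member in both groups. It had 61.4, 79.7 and 66.8 CPM in the Control libraries and 1285, 1150 and 1164 CPM in the TNF libraries. The groups lay far apart, with a coefficient of variation of 13.6% in Control and 6.20% in TNF. The mean went from 69.3 ± 9.44 to 1200 ± 74.4 CPM, a log2 fold change of 4.11 ± 0.14 (SE; adjusted p = 3.99e-07, edgeR).

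Gbp3, another member recruited to vacuoles, had 11.6, 17.4 and 13.6 CPM in Control and 390, 351 and 292 CPM in TNF. Control library 2 was again the highest of its group, and TNF library 3 the lowest. Its log2 fold change was 4.60 ± 0.19 (SE; adjusted p = 7.58e-07, edgeR). Gbp7, linked to assembly of the phagocyte NADPH oxidase, had 11.2, 8.60 and 9.68 CPM in Control and 121, 142 and 103 CPM in TNF. It was the 1 member in which Control library 2 was not the highest of its group. Its log2 fold change was 3.63 ± 0.15 (SE; adjusted p = 8.83e-07, edgeR).

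Of the members on chromosome 5, Gbp6 rose most. It had 10.0, 12.7 and 9.24 CPM in Control and 546, 549 and 470 CPM in TNF, with a log2 fold change of 5.61 ± 0.16 (SE; adjusted p = 1.88e-07, edgeR). In TPM, a level per transcript length and library, Gbp6 was at 1.33 to 1.43 times Gbp9 in the Control libraries. In the TNF libraries it was at 11.1 to 11.9 times. Gbp9 had 9.16, 12.3 and 8.88 CPM in Control and 57.5, 60.7 and 50.6 CPM in TNF. Its log2 fold change was 2.47 ± 0.14 (SE; adjusted p = 4.06e-06, edgeR).

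Gbp4, reported as a restraint on IRF7 signalling, was low in Control, with 50, 93 and 26 counts. In CPM it had 0.840, 1.23 and 0.457 in Control and 18.3, 18.0 and 15.3 in TNF. The Control libraries spread most for this gene (coefficient of variation 45.9%), against 9.70% in the TNF libraries. Its log2 fold change was 4.31 ± 0.27 (SE; adjusted p = 6.13e-06, edgeR). Gbp8, among the less studied members, moved least. It had 68, 90 and 45 counts in Control and 95, 90 and 117 in TNF, which came to 1.14, 1.19 and 0.791 CPM and 1.89, 2.30 and 2.04 CPM. Counts alone overlapped at 90, while values scaled to library size did not. The log2 fold change of Gbp8 was 0.99 ± 0.21 (SE; adjusted p = 0.00676, edgeR), the 1045th largest.

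**Figure D3:**
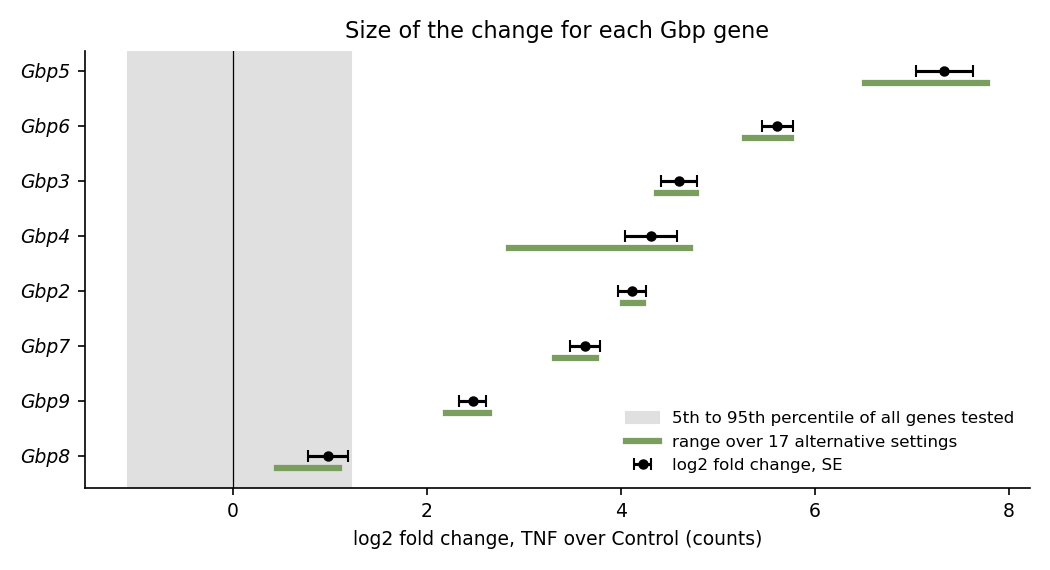
Log2 fold change of each member (points, with SE), the range of that value over 17 alternative settings (green bars) and the 5th to 95th percentile of all genes tested (grey). Gbp8 lies inside the grey band at 0.99, and the other 7 lie to its right, from 2.47 to 7.33.

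The spread within groups had a common pattern. Control library 2 was the highest Control library in 7 of the 8 members, at 2.002 times the mean of Control libraries 1 and 3 for Gbp5, 1.90 times for Gbp4 and between 1.23 and 1.38 times for the other 5. That library also had the highest summed level of 16 macrophage markers in Control. It was 4782 TPM (a level per transcript length and library) against 3543 and 3403 in Control libraries 1 and 3. Not all 16 markers were highest there. Its summed level of 13 MSC markers was the highest of the group too, at 7894 TPM against 7261 and 6928. Whether any of these cells contributed to its GBP reads was not tested. Without Control library 2 the log2 fold change was 7.77 for Gbp5 and 4.71 for Gbp4. Leaving out each of the 6 libraries in turn, every member was still called in all 48 member-by-repeat tests, with a highest adjusted p of 0.0253, for Gbp8 without TNF library 2 (edgeR).

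Total counts ran from 45629973 to 77142418 per library. 18S ribosomal RNA took 19.4% of the counts in TNF library 2 and 1.10% to 3.55% in the others. All 13 MSC markers were measured, with a summed level of 6928 to 7894 TPM in Control and 4476 to 5197 TPM in TNF. Their directions were mixed, with 3 called higher, 4 lower and 6 not called. All 16 macrophage markers were measured too, at 3403 to 4782 TPM in Control and 2263 to 2774 TPM in TNF. Of these 2 were called higher, 7 lower and 7 were not called. The calls of markers in this paragraph stand beside 16.0% of all genes called higher and 16.4% called lower. Of other cells, 2 of 7 neutrophil markers were analysed and both were called higher. Their summed level was 1.42 to 2.01 TPM in Control and 7.25 to 10.8 TPM in TNF. Of these, Camp was low in Control and passed the low-count filter through the TNF libraries. Its call is therefore given as a description. Both dendritic cell markers analysed, of 5 listed, were also called higher (1.51 to 2.64 TPM and 4.93 to 5.35 TPM). The part of such cells in the GBP levels was not tested. The 2 endothelial markers analysed, of 7, summed to at most 0.381 TPM, and Trac, the 1 analysed of 9 markers of T and NK cells, to 2.14 to 3.18 TPM in Control and 0.202 to 0.478 TPM in TNF. The remaining neutrophil, dendritic, endothelial, T and NK cell markers and all 5 B cell markers were not among the 15634 genes given for each library. They were therefore not analysed here. In bulk RNA the cells that made a transcript are not known, and more cells of a type cannot be told apart from more RNA per cell.

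Because TPM is per length, members can be compared and added on that scale. The TPM summed over the 8 genes was 72.8, 82.4 and 74.1 in the Control libraries and 1833, 1442 and 1563 in the TNF libraries. The groups did not overlap, and the sum was 21.0-fold higher in TNF (log2 difference 4.39; two-sided exact permutation test p = 0.1, the smallest that 3 against 3 libraries allows). TNF library 2, with the lowest sum of its group, was the library with 19.4% of counts from 18S ribosomal RNA. The part of that in its TPM was not tested. With TPM rescaled by a median factor for each library, the log2 difference was 4.46. Gbp2 ranked 3003rd of the 15634 listed genes by mean TPM in Control and 153rd in TNF. Gbp5 moved from rank 12513 to rank 677, whereas Gbp8 moved only from 13270 to 12288.

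The order of levels changed between the groups. In Control the order by mean TPM was Gbp2 (49.9 ± 3.02), Gbp3 (10.6 ± 1.39), Gbp6 (5.71 ± 0.522), Gbp9 (4.15 ± 0.359), Gbp7 (3.68 ± 0.577), Gbp5 (1.30 ± 0.461), Gbp8 (0.753 ± 0.1502) and Gbp4 (0.429 ± 0.234). Among neighbours in that order, Gbp9 and Gbp7 overlapped over the 3 libraries, as did Gbp8 and Gbp4, and the other neighbours did not. In TNF the order was Gbp2 (827 ± 108), Gbp6 (259 ± 25.1), Gbp3 (241 ± 50.7), Gbp5 (207 ± 24.5), Gbp7 (45.6 ± 4.84), Gbp9 (22.6 ± 1.54), Gbp4 (9.24 ± 1.19) and Gbp8 (1.41 ± 0.0298). There Gbp3 overlapped with Gbp6 and with Gbp5, while all 3 values of Gbp6 lay above those of Gbp5.

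As shares of the summed TPM, Gbp2 made up 65.3% ± 1.34 in Control and 51.2% ± 1.83 in TNF. Gbp5 held 1.67% ± 0.472 in Control and 12.8% ± 0.599 in TNF, and Gbp6 held 7.47% ± 0.381 and 16.1% ± 0.885. The shares of Gbp9 (5.43% ± 0.121 and 1.41% ± 0.116), Gbp7 (4.85% ± 1.04 and 2.85% ± 0.416) and Gbp8 (0.987% ± 0.208 and 0.0883% ± 0.0122) were lower in TNF. None of these 6 shares overlapped between groups, but with 3 libraries each the exact permutation p was 0.1 for every one, or 0.133 after Benjamini-Hochberg adjustment over the 8 members, so none passed 0.05. The shares of Gbp3 (13.8% ± 0.859 and 14.9% ± 1.59) and Gbp4 (0.553% ± 0.278 and 0.574% ± 0.0412) overlapped. Inside a library, the TPM of Gbp5 was 0.0210 to 0.0344 times that of Gbp2 in Control and 0.245 to 0.254 times in TNF.

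**Figure D4:**
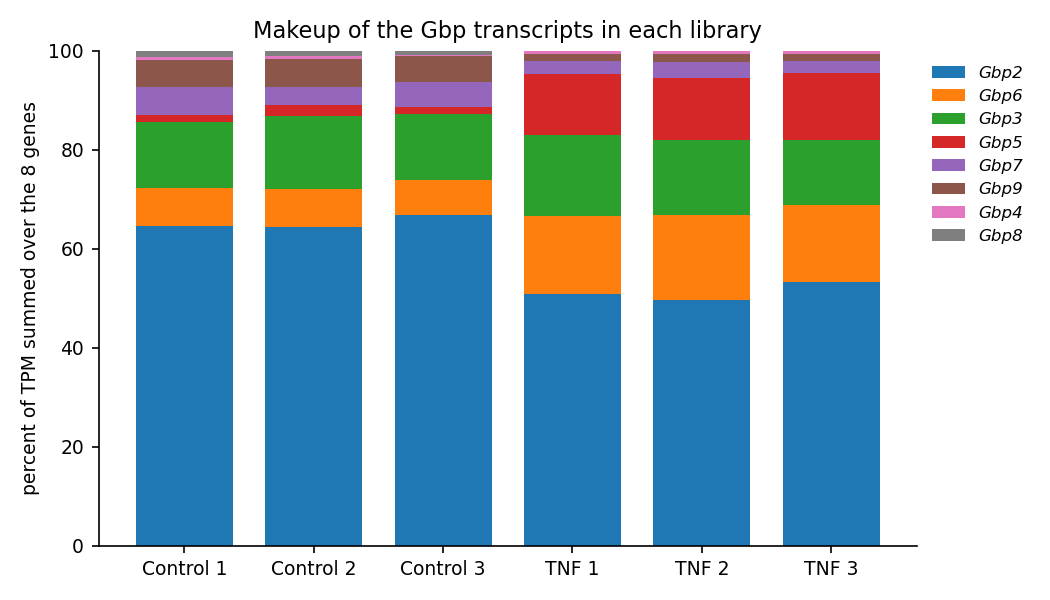
Percent of the TPM summed over the 8 genes held by each member in each of the 6 libraries. Gbp2 is the largest part in all 6, and the parts of Gbp5 and Gbp6 are larger in the 3 TNF libraries than in the 3 Control libraries.

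The members on chromosome 3 (Gbp2, Gbp3, Gbp5 and Gbp7) held 85.6% ± 0.919 of the summed TPM in Control and 81.8% ± 1.04 in TNF. Their sum was 20.1-fold higher in TNF, and that of the chromosome 5 members (Gbp4, Gbp6, Gbp8 and Gbp9) was 26.5-fold higher, both with an exact permutation p of 0.1. Along chromosome 3 the fold changes were 161 for Gbp5, 12.4 for Gbp7, 24.3 for Gbp3 and 17.3 for Gbp2. Along chromosome 5 they were 1.98 for Gbp8, 5.55 for Gbp9, 19.9 for Gbp4 and 48.9 for Gbp6, with 42.0 for Gbp10, which lies between Gbp4 and Gbp6.

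GBP transcripts resemble each other, which limits how reads can be divided among them. In the GENCODE M21 transcripts (GRCm38), 57.6% of the 31-base words of Gbp6 also occurred in other Gbp genes, and 51.4% of all Gbp6 words occurred in Gbp10. The share of words found in another Gbp gene was 31.1% for Gbp8, 18.3% for Gbp9, 13.5% for Gbp4, 4.85% for Gbp2, 5.64% for Gbp3 and 3.69% for Gbp7. Gbp5, the member with the largest change, had 0.030%. Counting words found in any other gene, the share was 74.2% for Gbp6, 31.1% for Gbp8, 18.3% for Gbp9, 14.7% for Gbp7 and 14.3% for Gbp4. It was 5.64% for Gbp3, 4.85% for Gbp2 and 3.05% for Gbp5. By that share, levels of Gbp6 and Gbp8 are less certain than those of Gbp2, Gbp3 and Gbp5, with Gbp9, Gbp7 and Gbp4 between them. Gbp10 and Gbp11, which were not among the 8 genes, were also called higher. Gbp10 had 9, 18 and 9 counts in Control, and with so few counts there both genes passed the low-count filter through the TNF libraries, so their calls are given as a description. Gbp10 went from 0.183 ± 0.0483 to 7.90 ± 0.806 CPM (log2 fold change 5.39 ± 0.20 SE; adjusted p = 4.59e-07, edgeR). Gbp11, annotated as a pseudogene, had 1, 9 and 6 counts in Control and 37, 35 and 38 in TNF. Most words of Gbp10 (80.8%) occurred in Gbp6, so a part of the Gbp10 level may belong to Gbp6 or the reverse.

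Related genes were described by lists drawn up by function, with earlier results of these data known, and their counts stand beside 16.0% of all genes called higher and 16.4% called lower. Of 12 genes for interferon receptors and JAK-STAT proteins, 9 were called higher and 0 lower, with a median log2 fold change of 1.08. Stat2, a transcription factor of the type I interferon response, rose from 44.7 ± 3.59 to 159 ± 14.2 CPM, and the kinase Jak2 from 85.9 ± 4.95 to 443 ± 34.7 CPM. Of the receptor chains, Ifngr2 (log2 fold change 0.97) and Ifnar2 (1.13) rose. Ifnar1 (0.48, adjusted p = 0.0308 by edgeR) was called only with all libraries or without Control library 2, with adjusted p up to 0.102. Ifnlr1 (0.55) lost its call when Control 2, Control 3, TNF 1 or TNF 2 was left out (highest adjusted p = 0.125, edgeR). Ifngr1 (0.48, adjusted p = 0.0808), Il10rb (1.06, 0.0842) and Jak1 (0.22, 0.0854) were not called by edgeR.

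Of 6 interferon regulatory factors 4 were higher, with a median log2 fold change of 0.77. Irf1, a known activator of GBP genes, rose from 76.7 ± 8.29 to 414 ± 53.3 CPM, Irf7 from 11.8 ± 1.41 to 104 ± 26.8 CPM and Irf5 from 27.3 ± 0.334 to 50.4 ± 4.16 CPM. Irf8, a factor of myeloid cells, was at 18.6 ± 0.867 CPM in Control and 18.6 ± 1.38 CPM in TNF (adjusted p = 0.991, edgeR; not called), and Irf3 was not called either (27.7 ± 3.01 and 27.0 ± 1.79 CPM). Of 8 negative regulators of the pathway 6 were higher. The 3 with the smallest adjusted p were the deconjugating enzyme Usp18 (log2 fold change 3.56), Socs1 (1.51) and Ptpn2 (1.04). Ptpn11 (0.06) and Pias1 (0.18) were not called. The 10 interferon ligand genes of the list drawn up, Ifng and Ifnb1 included, were not among the 15634 genes given for each library. They were therefore not analysed here.

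Genes of the inflammasome pathway, on which GBPs act, were called higher in 9 of 13 cases and lower in 2, and their median log2 fold change was 0.81. Among the higher genes, Il1b had only 0.0762 ± 0.0358 CPM in Control. It passed the low-count filter through the TNF libraries, so its call is given as a description. Gsdmd, the pore-forming gasdermin, rose from 8.08 ± 0.371 to 35.7 ± 0.737 CPM, Casp4 from 11.7 ± 2.03 to 84.2 ± 9.94 CPM and the sensor Nlrp3 from 3.13 ± 0.617 to 13.1 ± 0.533 CPM. Aim2, a sensor of cytosolic DNA, rose from 3.90 ± 0.404 to 6.91 ± 0.678 CPM. The lower genes were Gsdme (-0.58) and Nlrp1b (-1.01), the latter not called without TNF library 1 (adjusted p = 0.0629, edgeR). Il18 (-0.18) and Naip5 (0.01) were not called.

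Lists for the machinery that GBPs use had medians near 0, and their shares of calls in each direction were near those of all genes (16.0% higher and 16.4% lower). Of 6 genes for prenylation and processing of lipid-anchored proteins, Pggt1b, of the geranylgeranyl transferase, was higher (0.45, not called without TNF library 1 at adjusted p = 0.0503, edgeR) and Fnta, a subunit shared by both prenyl transferases, was lower (-0.42). Fntb (-0.02), Rce1 (0.09), Zmpste24 (-0.01) and Icmt (0.08) were not called, and the median was 0.03. Of 11 autophagy conjugation genes, which help bring GBPs to vacuoles, Atg7 (0.38) was higher and Gabarap (-0.52) and Map1lc3a (-0.58) were lower. Without TNF library 1 none of these 3 was called, and neither lower gene was called without Control 1, Control 2 or Control 3 (adjusted p up to 0.0975, edgeR).

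Of 13 atlastins and other dynamin-like GTPases, relatives of the GBPs, 3 were higher and 3 lower, counts not far from the 16.0% and 16.4% of all genes, and their median log2 fold change was 0.01. The higher ones were the interferon-inducible Mx1 (3.13), Mx2 (2.70) and Gvin1 (2.47). The lower ones were Dnm1 (-1.04), Dnm3 (-0.57) and the atlastin Atl3 (-0.51), of which Atl3 lost its call when Control 1, Control 2, TNF 1 or TNF 2 was left out (highest adjusted p = 0.162, edgeR). Atl2, with 47.3 ± 2.18 and 47.5 ± 2.32 CPM, and Atl1 (-0.23) were not called.

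**Figure D5:**
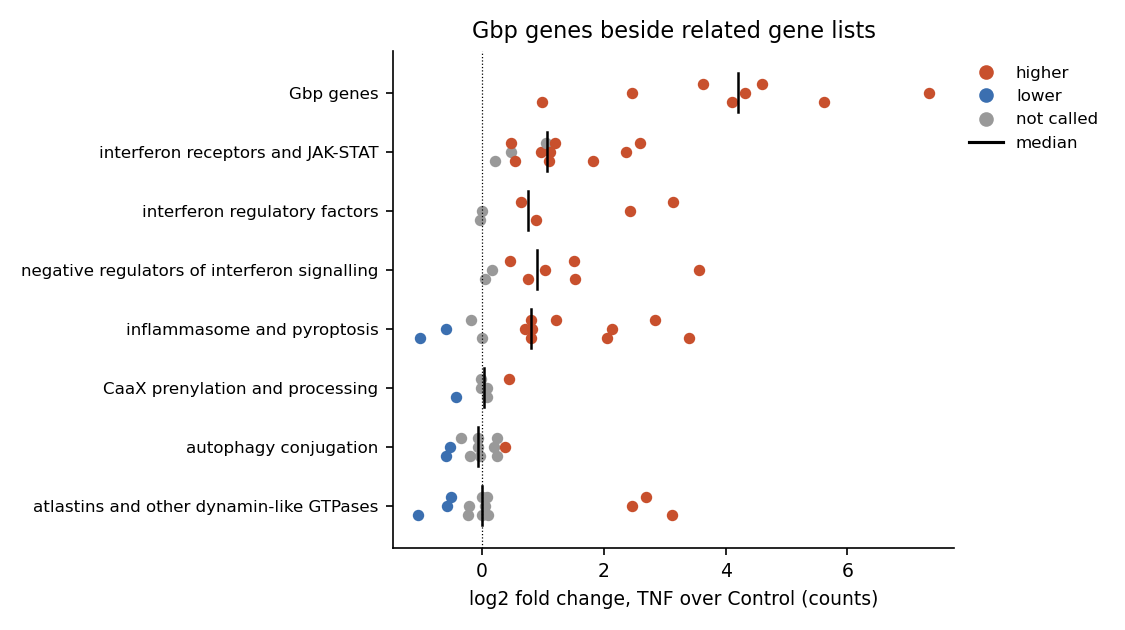
Log2 fold change of each GBP member and of each tested gene in 7 related lists (points coloured by call), with the median of each list as a vertical bar. The GBP median of 4.21 lies to the right of every list median, which range from -0.05 to 1.08.

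Likeness to the family was measured as the Euclidean distance over the 6 libraries between a gene's centred log2 CPM and the mean centred profile of the 8 members, among 10771 genes with a mean of at least 5 CPM in the higher group, predicted genes left out. The nearest genes were Slc7a11 (distance 0.16), a cystine transporter, Iigp1 (0.33), an immunity-related GTPase, Tnfaip3 (0.36), which encodes the NF-kB inhibitor A20, Zbp1 (0.41), a nucleic acid sensor, and Slc39a4 (0.42), a zinc importer. Their Pearson correlations with the profile were 0.9966 to 0.9996 over 6 libraries that form 2 separate groups, given as a description. The member nearest to the mean profile was Gbp2 (0.28), and those farthest from it were Gbp5 (4.02) and Gbp8 (3.90).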

How the data were processed

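RNA sequencing of 3 Control and 3 TNF libraries was used. Library preparation used a stranded SMART-Seq kit, per the labels' protocols. Per the submitters' processing notes, reads were processed with Trim Galore, STAR, StringTie and Salmon on GRCm39. The authors deposited expected counts as whole numbers, without gene names, and TPM with gene names. Lines were paired by position (all 260 zeros coincided). Every listed gene had at least 10 counts in at least 3 libraries.

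The model for counts was that of edgeR 4.0.16 under R 4.3.3 (filterByExpr, TMM factors, glmQLFit, glmQLFTest, group as the only term), adjusted over 15547 genes. The SE is the log2 fold change divided by the square root of F. Sums and shares of TPM were compared by exact permutation over libraries. The procedure was tested on simulated data. Alternatives were RLE factors, library totals, DESeq2 1.42.0, limma 3.58.1 (voom or log2 TPM), no filter, 2 stricter thresholds, a block on replicate number, and fits without 1 library. Members, gene lists and motifs were chosen with earlier results of these data known. Other genes were named by a rule: rows whose symbol is Gbp and a number; of each list, up to 3 called genes with the smallest adjusted p and those lower or not called where there were at most 5; Irf1, Jak2, Ifngr1, Ifngr2, Ifnar1, Ifnar2, Irf8, Casp4, Aim2 and Atl3; and the 5 genes nearest in profile. Ifnlr1, Camp and Il1b were named after their values were seen. A gene that the rule also names is not reported here.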

Additional observations from a re-analysis of the deposited data

How the results depend on the processing

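All 8 GBP genes were called higher under each of 17 alternatives, except Gbp8 against a 2-fold minimum (log2 fold change 0.99). The log2 fold change of Gbp5 ranged from 6.51 to 7.77 and that of Gbp4 from 2.85 to 4.71. Over all genes, 5039 were called (2489 higher, 2550 lower). With adjusted p under 0.01 the counts were 3121 (1587 and 1534), and with a 2-fold minimum 870 (541 and 329). Limma on log2(TPM + 1) called 3338 (1356 higher), with a pseudocount of 0.1 it called 3252 (1319 higher), and without a filter 1477 were higher. Library totals in place of TMM gave 1612 higher genes, moved the median of all genes to -0.09 and put 38.5% of calls higher, against 49.4%. The TPM fits put 40.3% to 40.6% of calls higher.

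Small list counts moved most, and the cause was not tested. Higher autophagy genes numbered 2 with RLE factors, 3 with DESeq2 and 0 with library totals, in the TPM fits and with a 2-fold minimum. Lower ones numbered 1 with library totals and in the filtered TPM fits, and 0 in the unfiltered TPM fit, at adjusted p under 0.01 and with a 2-fold minimum. Higher prenylation genes numbered 0 with library totals, in the TPM fits and with a 2-fold minimum. Lower inflammasome genes numbered 1 in the filtered TPM fits and at adjusted p under 0.01. A 2-fold minimum left 3 JAK-STAT genes, 2 IRFs, 2 negative regulators and 4 inflammasome genes higher, and 0 inflammasome, prenylation, autophagy or dynamin-like genes lower. Leaving out 1 library gave 0 to 3 higher and 0 to 2 lower autophagy genes, 0 to 1 higher prenylation genes and 1 to 2 lower inflammasome genes.

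With CPM in place of TPM the share differences (TNF minus Control, in percentage points) were -0.0483 for Gbp4, 12.3 for Gbp5, 10.8 for Gbp6, -3.88 for Gbp7 and -6.38 for Gbp9. That of Gbp4 ran from -0.134 (without Control replicate 3) to 0.136 when 1 library was left out, so its sign was not settled. Same-numbered libraries did not deviate together (correlations -0.0125, -0.304 and -0.222). With 3 libraries a group, centred on their own mean, these values cannot decide whether the numbers pair libraries by mouse or dish. The replicate block gave 1987 higher and 1993 lower genes, 8 of 8 GBP genes called, and 0 lower autophagy genes.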

Other observations

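The ratio of Gbp6 to Gbp10 TPM ran from 39.2 to 70.4 over the Control libraries and from 41.2 to 57.4 over the TNF libraries, so the groups overlapped (two-sided exact permutation test p = 0.9). Both genes share much of their sequence, and whether the overlap comes from the division of reads was not tested. The number of counts per TPM, relative to all genes of the library, was close between groups for Gbp5 (difference of TNF minus Control 0.005 on the log2 scale) and Gbp2 (0.01). It was lower in TNF for Gbp4 (-0.21) and Gbp10 (-0.18). For Gbp4 and Gbp10 the differences of mean log2 TPM (4.61 and 5.58) were larger than the edgeR log2 fold changes of counts (4.31 and 5.39). These measures differ in calculation and scaling too, so their gap has no single reading.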
